A study of Mus musculus with 384 samples.

Results

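Single cells sorted from mouse kidney were examined for 8 genes of the chemokine system, the CXC ligands Cxcl1, Cxcl2, Cxcl10, Cxcl12 and Cxcl16 and the receptors Ccr2, Cx3cr1 and Cxcr4. They were chosen by gene symbol from the 40594 genes present in both deposited count tables, and all 8 were found once each repeated line of a gene was dropped. The mice were 8 weeks old, and the labels name no strain, genotype or treatment, although the well names carry the letters UUO without an explanation. Cells positive for PDGFRB, a receptor kinase that pericytes and fibroblasts carry, were sorted as negative (CD45-) or positive (CD45+) for CD45, the leukocyte surface phosphatase encoded by Ptprc. Each sort gate was run in 2 batches, 1 plate of 96 wells per gate and batch, or 384 wells in all. The title of the series concerns the share of monocytes among myofibroblasts, the matrix-making cells of scarred kidney. Comparing the gates shows which of these cells held transcripts of the ligands and which those of the receptors.

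Chemokines are small secreted proteins that steer leukocytes along their gradients through receptors of the G protein-coupled family. Cxcl1 and Cxcl2 attract neutrophils through Cxcr2, Cxcl10 is induced by interferon and attracts T cells and natural killer cells through Cxcr3, and Cxcl12 is a stromal factor that binds Cxcr4 and the scavenging receptor Ackr3. Cxcl16 is made as a membrane protein and binds Cxcr6. Ccr2, the receptor of Ccl2, brings monocytes from the blood into inflamed tissue, and Cx3cr1, the receptor of the membrane-bound ligand Cx3cl1, marks patrolling monocytes and many resident macrophages of the kidney.

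A well was used when it held at least 10000 reads on genes and 500 genes with a read, which kept 93 and 93 CD45- wells and 92 and 90 CD45+ wells of batches 1 and 2. The plates held 26513530 to 31778475 reads, and single wells 5323 to 1246070. Levels (CPM) are reads summed over the used wells of a plate and scaled to a common total of reads, and brackets give exact Poisson 95% intervals. The gates were set against each other batch by batch, as CD45+ over CD45- on the log2 scale with 1 CPM added to both. A call needed a 4-fold difference with the same sign in each batch. No animal is named, so each plate counts as 1 sample and no p-value was made. A summed plate cannot tell fewer cells with a transcript from less of it per cell, so wells at or above 100 CPM were counted among those with at least 50000 reads (79, 82, 76 and 78 in the order above). Those counts have exact binomial intervals, and all intervals cover counting error only, since reads without molecular identifiers are not independent molecules. Wells carry numbers in accession order, which serve as names.

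The gates followed Ptprc but only in part Pdgfrb. In CD45- plates Ptprc was at 0.136 and 0.976 CPM, and in CD45+ plates it was at 469 and 303 CPM. Pdgfrb was at 294 and 220 CPM in CD45- but at 0.113 and 5.73 CPM in CD45+, so the CD45+ wells are called by their gate and not by a Pdgfrb transcript. At or above 100 CPM of Pdgfrb were 23 of 79 and 20 of 82 CD45- wells of that depth, against 0 of 76 and 1 of 78 CD45+ wells. Most wells of either gate thus lacked a high level of the transcript of their gate marker. Clusters made without the 8 genes and without 54 other chemokine genes gave leukocyte-like wells (63 and 74, all CD45+), collagen-rich wells (49 and 41 CD45-, 4 and 1 CD45+), endothelial-like wells (25 and 31 CD45-, 1 and 2 CD45+) and tubule-like wells (4 and 9 CD45-, 7 and 3 CD45+). Hemoglobin genes led a further 15 mostly shallow CD45- wells of batch 1, and the remaining wells, also mostly shallow, stayed unnamed. A difference from the study's own cell types may come from these rebuilt names.

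Cxcl1 and Cxcl2 lie next to each other on mouse chromosome 5, with starts 12654 bases apart, and Cxcl10 lies on the same chromosome. The 250 bases before the start of these 3 genes are shown because the genes shared some of their highest wells. They come from the RefSeq promoter table of build GRCm38.p6, in which 7 of the 8 genes were matched. Capitals mark the form GGGNNNTTCC of the NF-kB motif on either strand, which includes the exact motif GGGAATTTCC, and in Cxcl10 also the core GAAANNGAAA of the interferon response element.
Cxcl1, chr5:90890995-90891244, plus strand: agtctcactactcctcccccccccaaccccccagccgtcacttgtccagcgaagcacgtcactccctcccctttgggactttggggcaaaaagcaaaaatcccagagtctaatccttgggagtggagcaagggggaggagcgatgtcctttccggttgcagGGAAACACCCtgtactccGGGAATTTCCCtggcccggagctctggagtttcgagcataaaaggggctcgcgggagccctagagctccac
Cxcl2, chr5:90903649-90903898, plus strand: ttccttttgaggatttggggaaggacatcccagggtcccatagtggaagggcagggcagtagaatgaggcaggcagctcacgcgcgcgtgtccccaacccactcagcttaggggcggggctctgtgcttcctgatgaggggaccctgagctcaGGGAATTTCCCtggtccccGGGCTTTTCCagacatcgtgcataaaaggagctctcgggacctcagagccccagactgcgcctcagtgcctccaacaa
Cxcl10, chr5:92348890-92349139, minus strand: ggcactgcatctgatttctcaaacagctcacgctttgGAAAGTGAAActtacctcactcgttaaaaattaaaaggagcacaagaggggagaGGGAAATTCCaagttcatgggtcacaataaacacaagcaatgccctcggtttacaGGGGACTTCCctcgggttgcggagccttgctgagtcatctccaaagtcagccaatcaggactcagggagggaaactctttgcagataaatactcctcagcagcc
The exact motif began 71 bases before the start of Cxcl1 and 97 bases before that of Cxcl2, and the wider form also matched its reverse strand 1 base on. The exact motif was read from the promoters of Cxcl1 and Cxcl2, as the wider form that they share. Its presence in both was therefore fixed in advance. It was in 28 of 32851 promoters of this length (0.0852%), and of the 7 genes searched (all but Cxcl16) in no others than Cxcl1 and Cxcl2. The wider form, in 1527 promoters (4.65%), was in Cxcl1, Cxcl2 and Cxcl10. The interferon core began 213 bases before the start of Cxcl10 and was in 978 promoters (2.98%). A match describes the letters and is not evidence of binding.

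Of the 8 genes, 4 were called. Cxcl2, Ccr2 and Cx3cr1 were higher in CD45+ (3 of 8, against 4.33% of the 12882 genes that averaged at least 1 CPM), and Cxcl12 was higher in CD45- (1 of 8, against 12.9%). Cxcl1, Cxcl10, Cxcl16 and Cxcr4 were called in neither direction, and Cxcr4 was also the 1 gene that did not reach a mean of 1 CPM. The median ratio of the 8 genes was 3.52 and 0.56 in batches 1 and 2, and that of all genes was -0.39 and -0.56. With TMM factors the median of all genes was -0.10 in both batches, a shift that left the 8 calls as they were.

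**Figure D1:**
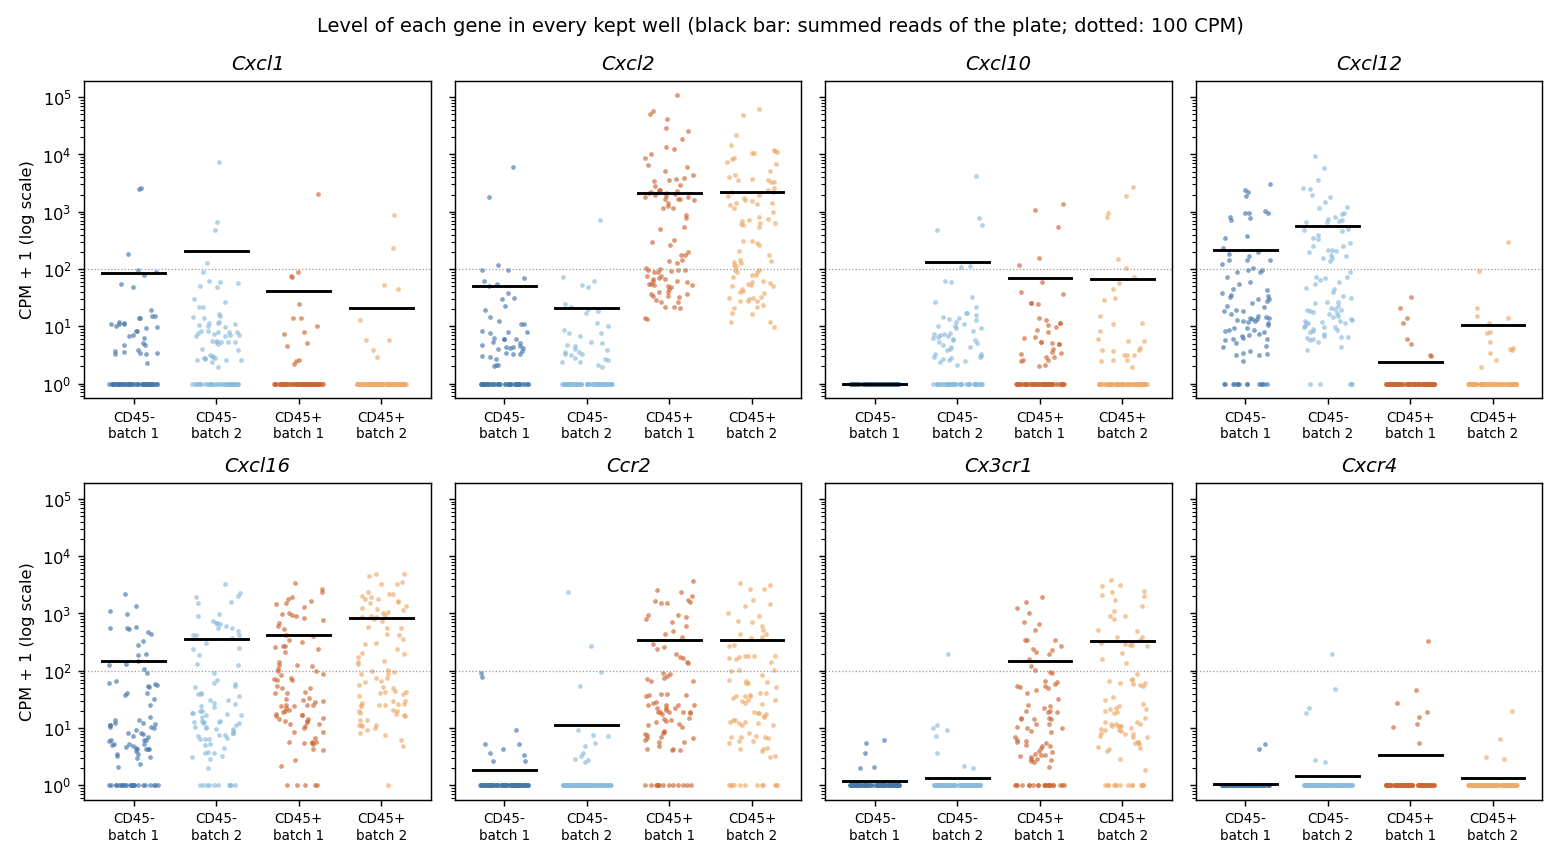
Level of each gene in every used well on a log axis (CPM plus 1), by plate, with 1 point per well and a black bar at the level of the summed plate. Cxcl2 was above 0 in every CD45+ well, whereas the bars of Cxcl1 and Cxcl10 rest on a few wells far above the rest.

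Cxcl12 (ENSMUSG00000061353) was the only ligand among the 8 genes that was called higher in CD45-. Its level in CD45- was 216 CPM (211 to 222) and 562 CPM (554 to 571), against 1.397 CPM (0.984 to 1.93) and 9.70 CPM (8.59 to 10.9) in CD45+. In CD45- wells it ranged from 0 to 3031 CPM with a median of 13.5 in batch 1, and from 0 to 9466 CPM with a median of 33.04 in batch 2. The CD45+ wells had a median of 0 in both batches and reached 32.03 and 291 CPM, so the ranges of single wells overlapped while the plate levels stood far apart. The log2 ratio was -6.50 in batch 1 and -5.72 in batch 2. Well 16 of the CD45+ plate of batch 2 held 76.8% of that plate's Cxcl12 reads, and without it the plate stood at 2.31 CPM and the ratio was -7.41. At or above 100 CPM were 18 of 79 (22.8%, 14.1 to 33.6%) and 27 of 82 CD45- wells (32.9%, 22.9 to 44.2%). In CD45+ they were 0 of 76, which allows up to 4.74%, and 1 of 78.

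Collagen-rich wells held most of it. They stood at 258 and 860 CPM in batches 1 and 2, with 15 of 49 and 23 of 40 deep wells (at least 50000 reads) at or above 100 CPM. Endothelial-like CD45- wells followed at 172 and 108 CPM, with 3 of 24 and 4 of 31 such wells, and tubule-like CD45- wells stood at 3.06 and 17.4 CPM. The order of collagen-rich and endothelial-like wells was the same in both batches, but the levels lay nearer each other in batch 1 than in batch 2. Without the top well of each class, those of batch 1 were 217 and 119 CPM. The genes whose level followed Cxcl12 most closely over deep CD45- wells were Casp12 (Pearson's r 0.45 in 79 wells of batch 1 and 0.37 in 82 wells of batch 2), Fzd1 (0.33 and 0.41) and Dpep1 (0.33 and 0.39). These values describe cells that share a plate and its depth range.

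Cxcl2 (ENSMUSG00000058427) was the only ligand among the 8 genes that was called higher in CD45+. Summed CD45- plates gave 50.6 CPM (48.1 to 53.2) and 20.2 CPM (18.7 to 21.8), and CD45+ plates gave 2141 CPM (2123 to 2158) and 2227 CPM (2209 to 2244). Single CD45+ wells ran from 12.3 CPM through a median of 303 to 107270 CPM in batch 1, and from 8.89 through 424 to 63129 CPM in batch 2. No used CD45+ well was without a Cxcl2 read, while the median CD45- well held none in either batch. Its log2 ratio was 5.38 in batch 1 and 6.72 in batch 2. At or above 100 CPM were 41 of 76 (53.9%, 42.1 to 65.5%) and 46 of 78 CD45+ wells (58.97%, 47.3 to 69.99%), against 1 of 79 and 1 of 82 CD45- wells. The CD45- level rested on those 2 wells: well 18 of batch 1 held 84.3% of its plate's Cxcl2 reads and well 27 of batch 2 held 87.99%. Without them the ratios were 7.87 and 9.32. A further CD45- well of batch 1, well 53 with 20902 reads, held 124 Cxcl2 reads, or 5932 CPM.

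Every CD45+ well of every class had a Cxcl2 read, and the summed levels of the classes differed while their wells overlapped. Leukocyte-like wells stood at 2609 and 2427 CPM, with 36 of 61 and 40 of 69 deep wells at or above 100 CPM. The 7 and 3 tubule-like CD45+ wells stood at 97.8 and 76.4 CPM and reached 290 and 119 CPM. The class name is uncertain for some of these wells. Wells 35, 41 and 83 of batch 1 and well 75 of batch 2 had at most 14.99 CPM of Cdh16, Aqp2 and Krt18. Those are the tubule markers that named the class. Well 83 had 636 CPM of Ptprc but also 296 CPM of Krt8, another tubule marker. The 16 and 12 used CD45+ wells of fewer than 50000 reads stood at 19339 and 8744 CPM. The 17 and 10 unnamed CD45+ wells, of which 3 and 3 were deep, stood at 8533 and 4521 CPM, above the leukocyte-like wells. Whether reads passed between wells of a plate was not tested. Over deep CD45+ wells, the genes that followed Cxcl2 most closely were Ppp1r15a (r 0.46 and 0.43 in 76 and 78 wells), Il1b (0.38 and 0.38), the gene of the cytokine interleukin 1 beta, and Ccrl2 (0.33 and 0.35), an atypical chemokine receptor.

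Cxcl1 (ENSMUSG00000029380), the neighbour of Cxcl2, was found at a high level in 9 deep wells of all 4 plates and passed no call. Its level was 86.04 CPM (82.7 to 89.5) and 204 CPM (200 to 210) in CD45-, against 40.3 CPM (37.9 to 42.8) and 19.8 CPM (18.2 to 21.5) in CD45+. The median well held 0 CPM in both CD45+ plates and in CD45- batch 1, and 2.05 CPM in CD45- batch 2. The highest wells reached 2566 and 7408 CPM in CD45- and 2037 and 869 CPM in CD45+, so the ranges of the gates overlapped. Wells at or above 100 CPM were 3 of 79 and 3 of 82 in CD45- and 1 of 76 and 2 of 78 in CD45+. The log2 ratio was -1.08 in batch 1 and -3.30 in batch 2. Single wells decided both: well 87 of the CD45+ plate of batch 1 held 98.3% of the reads of its plate, and without it the ratio was -5.68, which would make Cxcl1 a gene called higher in CD45-. Without well 18 of the CD45- plate the ratio of batch 1 was 0.57, and without well 27 of the CD45- plate that of batch 2 was 0.09.

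Cxcl1 and Cxcl2 shared some of these wells. Both were at or above 100 CPM in 1 of 79 and 1 of 82 CD45- wells and in 1 of 76 and 2 of 78 CD45+ wells, against 0.038, 0.0366, 0.539 and 1.18 wells from the product of their single shares. In CD45+ every well with Cxcl1 at that level also had Cxcl2 at it, and in CD45- each of the 2 wells with Cxcl2 at that level also had Cxcl1. Well 18 of CD45- batch 1, tubule-like, held 2566 CPM of Cxcl1 and 1830 CPM of Cxcl2. Well 27 of CD45- batch 2, collagen-rich, held 7408 CPM of Cxcl1, 706 CPM of Cxcl2 and 473 CPM of Cxcl10, and with them 1896 CPM of Ccl2 and 4857 CPM of Ccl7, a pair of monocyte-attracting ligands. That well had 0 CPM of Ptprc. The other collagen-rich well with much Cxcl1 in batch 1, well 73, held 2456 CPM of it and 30.3 CPM of Cxcl2, so the genes also occurred apart. The genes nearest to Cxcl1 over deep CD45+ wells were Csrnp1 (r 0.40 and 0.31), Arl2 (0.31 and 0.26) and Nsmce2 (0.28 and 0.25), values that rest on the few wells with Cxcl1.

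Cxcl10 (ENSMUSG00000034855) differed between the batches in the CD45- gate. Not 1 read was counted in the 93 CD45- wells of batch 1 (upper limit 0.126 CPM), against 133 CPM (129 to 137) in batch 2, where 53 of 93 wells had a read. The CD45+ plates stood at 68.4 CPM (65.2 to 71.6) and 67.1 CPM (64.1 to 70.2). Single wells reached 4178 CPM in CD45- batch 2, and 1378 and 2717 CPM in the CD45+ plates, where the median was 0. In batch 1 the CD45+ plate was at least 669-fold higher than a floor of 3 reads in the CD45- plate (0.102 CPM). Well 95 held 56.7% of the CD45+ reads, and without it the plate stood at 30.7 CPM and was at least 301-fold higher. In batch 2 the log2 ratio was -0.98, and the gene was called in neither direction. Well 49 of the CD45- plate of batch 2 held 87.2% of its reads. Without that well the plate stood at 17.5 CPM and the ratio was 1.88.

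The wells with Cxcl10 at or above 100 CPM were 0 of 79 and 2 of 82 in CD45- and 4 of 76 and 5 of 78 in CD45+. Well 49 of CD45- batch 2, collagen-rich, held 2692 CPM of Isg15 and 3234 CPM of Ifit1, both induced by interferon, and had 8 of 12 listed interferon-induced genes at or above 100 CPM. Of the 9 CD45+ wells, all leukocyte-like, 8 had 0 or 1 of these 12 genes at that level, and well 9 of batch 2 had 7. Il1b was at or above 100 CPM in all 9 of them and Ccl2 in 8, where 38 of 76 and 46 of 78 deep CD45+ wells had such a level of Il1b and 53 and 47 of Ccl2. Conversely, 2 and 5 deep CD45+ wells had at least 3 of the 12 interferon-induced genes at that level, and 0 and 1 of them were high in Cxcl10. Batf (r 0.35 and 0.31) and Kxd1 (0.30 and 0.30) followed Cxcl10 most closely over deep CD45+ wells, out of 2779 genes compared. These values rest on few wells, since 9 of 76 and 10 of 78 had a Cxcl10 read at equal depth.

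Cxcl16 (ENSMUSG00000018920) was found in both gates and was higher in CD45+ by less than the call asks. At 2-fold in both batches it would be called, against 7.41% of genes higher in CD45+, and Cxcl1 would be called higher in CD45-, against 22.1%. Its level was 146 CPM (142 to 151) and 355 CPM (349 to 362) in CD45-, against 417 CPM (409 to 425) and 840 CPM (830 to 851) in CD45+. CD45- wells ran from 0 through a median of 5.996 to 2148 CPM and from 0 through 16.4 to 3212 CPM. CD45+ wells ran from 0 through 35.6 to 3358 CPM and from 0 through 97.1 to 4894 CPM. The ranges overlapped throughout, while each CD45+ median was above the CD45- median of its batch. Ratios were 1.50 and 1.24 on the log2 scale, and stayed between 1.13 and 1.74 when any single well was left out. Batch 2 was higher than batch 1 in both gates. By class, Cxcl16 stood at 191 and 538 CPM in collagen-rich CD45- wells and at 519 and 888 CPM in leukocyte-like wells, but at 9.41 and 80.7 CPM in endothelial-like CD45- wells. In batch 2, endothelial-like wells stood at 26.4 CPM without their top well. In CD45- wells, Cxcl12 and Cxcl16 were both at or above 100 CPM in 5 of 79 and 11 of 82, against 3.19 and 5.93 from the product of their shares. That product covers all CD45- classes, which differed in the level of both genes, and it was not made within a class. The genes nearest to Cxcl16 over deep CD45+ wells were Pcna (r 0.36 and 0.35), Clec4b1 (0.36 and 0.35) and Ypel5 (0.33 and 0.33).

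**Figure D2:**
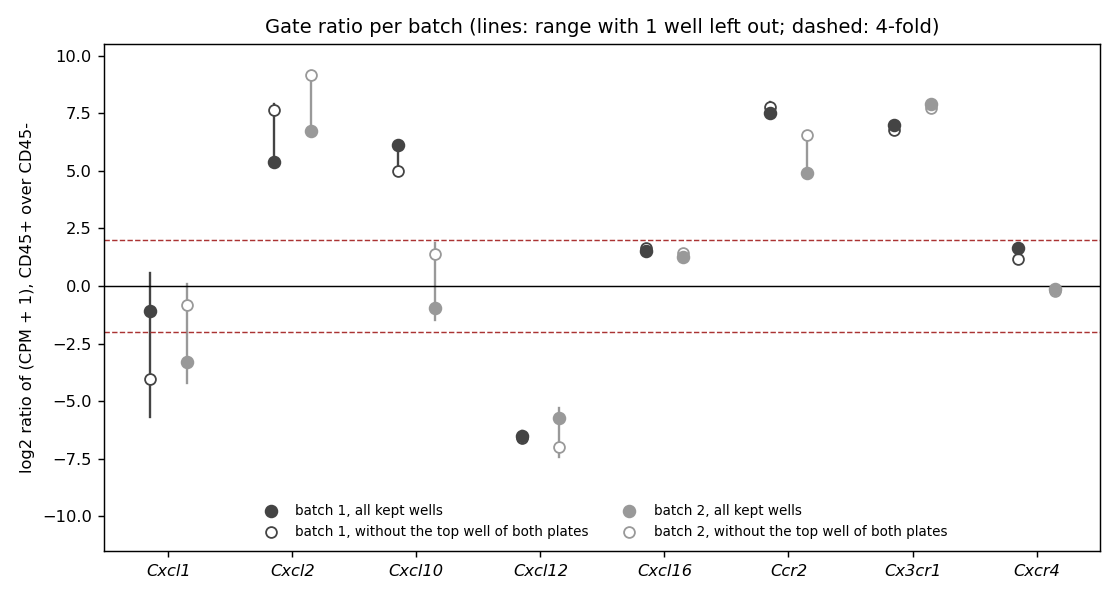
Log2 ratio of CPM plus 1, CD45+ over CD45-, for each gene and batch, where filled points use all wells, open points leave out the well with most reads in both plates, and lines span the values with any 1 well left out. Cxcl2, Ccr2, Cx3cr1 and Cxcl12 stay beyond the dashed 4-fold limits in both batches, Cxcl16 stays between them, and Cxcl1 and Cxcl10 cross 0.

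Ccr2 (ENSMUSG00000049103) was a receptor of the CD45+ wells. It was at 0.886 CPM (0.579 to 1.298) and 10.49 CPM (9.39 to 11.7) in CD45-. In CD45+ it was at 338 CPM (331 to 345) and 342 CPM (336 to 349). CD45+ wells ran from 0 through a median of 21.1 to 3633 CPM in batch 1 and from 0 through 29.5 to 3397 CPM in batch 2. The median CD45- well was at 0 in both batches. The log2 ratio was 7.49 in batch 1 and 4.90 in batch 2. Well 51 of the CD45- plate of batch 2, endothelial-like, held 2358 CPM of Ccr2 and 76.9% of the reads of its plate. Its own levels go against the name of its class, with 0 CPM of Pecam1, an endothelial adhesion molecule, 35964 CPM of Cd74, 2192 CPM of Ccl7 and 9.21 CPM of Ptprc. Without it the plate stood at 2.43 CPM and the ratio was 6.64. At or above 100 CPM were 21 of 76 (27.6%, 17.99 to 39.1%) and 22 of 78 CD45+ wells (28.2%, 18.6 to 39.5%), against 0 of 79 and 1 of 82 CD45- wells. Leukocyte-like wells stood at 351 and 388 CPM. The 7 tubule-like CD45+ wells of batch 1 stood at 520 CPM, and 3 of them held Ccr2 at 298 to 1626 CPM. Of those 3, well 27 also held 704 CPM of Ptprc, well 29 held 1279 CPM and well 34 held 19.2 CPM, beside 628 to 1480 CPM of the tubule gene Cdh16. Whether these wells held more than 1 cell was not tested. The genes nearest to Ccr2 were Fcer1g (r 0.36 and 0.33), Lyz2 (0.34 and 0.30) and Ifi30 (0.30 and 0.29).

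Cx3cr1 (ENSMUSG00000052336) was nearly absent from the CD45- wells. Those plates held 5 and 11 reads, 0.170 CPM (0.0553 to 0.398) and 0.346 CPM (0.173 to 0.620), and the CD45+ plates stood at 148 CPM (144 to 153) and 324 CPM (317 to 330). CD45+ wells ran from 0 through a median of 9.07 to 1913 CPM in batch 1 and from 0 through 15.6 to 3815 CPM in batch 2. Its log2 ratios were 6.99 and 7.91, and stayed between 6.71 and 8.02 with any well left out. At or above 100 CPM were 12 of 76 (15.8%, 8.43 to 25.96%) and 21 of 78 CD45+ wells (26.9%, 17.5 to 38.2%). No deep CD45- well was at that level, which allows up to 4.56% and 4.40%. Leukocyte-like wells stood at 195 and 369 CPM and tubule-like CD45+ wells at 1.83 and 6.08 CPM. The genes nearest to Cx3cr1 were Ly86 (r 0.36 and 0.30), Ebi3 (0.29 and 0.32) and Adgre1 (0.28 and 0.30), which encodes the macrophage marker F4/80.

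Cxcr4 (ENSMUSG00000045382), the receptor of Cxcl12, was close to the limit of detection in every plate. The reads counted were 2 and 15 in the CD45- plates and 63 and 10 in the CD45+ plates, or 0.0682, 0.472, 2.38 and 0.351 CPM. In the CD45+ plate of batch 1, wells 71 and 24 held 28 and 25 of the 63 reads, and well 24 was the 1 deep well at or above 100 CPM (326 CPM). The log2 ratio was 1.66 in batch 1 and -0.12 in batch 2. The sign of the ratio differed between the batches. Intervals of batch 1 were 0.00825 to 0.246 CPM in CD45- and 1.83 to 3.04 CPM in CD45+, and those of batch 2 were 0.264 to 0.779 and 0.168 to 0.646 CPM. They cover counting error only and do not measure the spread between wells or plates, so they cannot tell whether the gates or batches differed. Il2rg (r 0.36 and 0.29), Ddx6 (0.25 and 0.27) and Hipk1 (0.23 and 0.37) followed it most closely, over wells of which 6 of 76 and 1 of 78 had a Cxcr4 read at equal depth, which is too sparse to read a relation from.

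**Figure D3:**
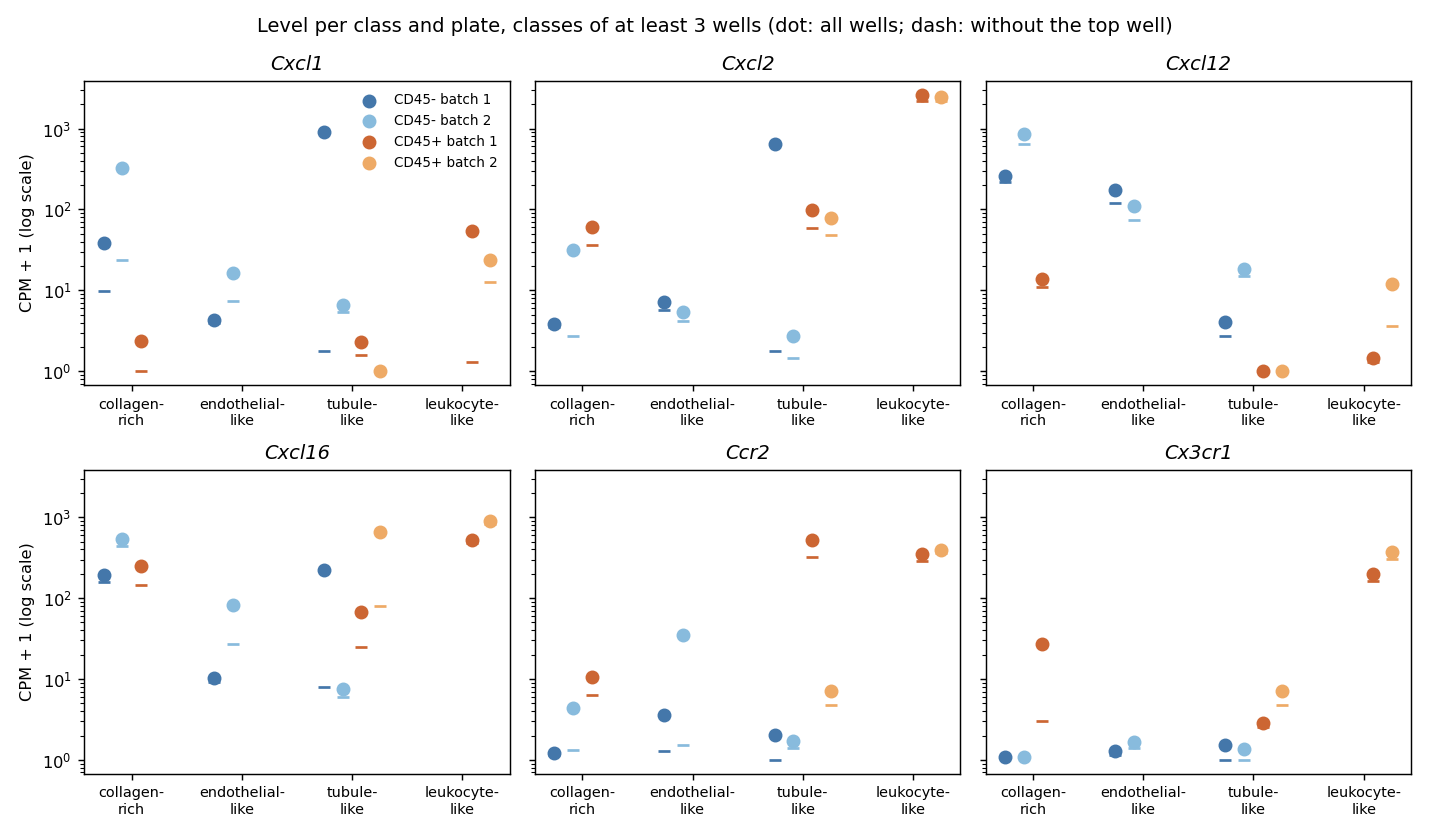
Level of 6 genes (CPM plus 1, log axis) in the wells of each class, by plate, for the 4 named classes where they had at least 3 wells, with dots for all wells and dashes for the value without the well with most reads. Cxcl12 stands highest in collagen-rich CD45- wells, Cxcl2 and Cx3cr1 stand highest of these classes in leukocyte-like wells, and the highest Cxcl1 dots drop when 1 well is left out.

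CD45+ wells with both Ccr2 and Cx3cr1 occurred, in numbers near the product of the single shares. At or above 100 CPM, 4 of 76 deep wells of batch 1 had both (5.26%, 1.45 to 12.9%), 17 had Ccr2 alone, 8 had Cx3cr1 alone and 47 had neither. In batch 2, 5 of 78 had both (6.41%, 2.11 to 14.3%), 17 had Ccr2 alone, 16 had Cx3cr1 alone and 40 had neither. The product of the single shares gives 3.32 and 5.92 wells with both, which lies within both intervals. Of the wells high in Ccr2, 19.05% and 22.7% were high in Cx3cr1, and of those high in Cx3cr1, 33.3% and 23.8% were high in Ccr2. Confined to leukocyte-like wells, 4 of 61 and 5 of 69 had both, against products of 3.25 and 6.09 wells. With each well thinned to 50000 reads and any read counted, 26 of 76 (34.2%, 23.7 to 45.99%) and 28 of 78 (35.9%, 25.3 to 47.6%) had both, against 23.7 and 26.5 wells from the product. On that measure 3.80% and 3.66% of CD45- wells had a Ccr2 read and 2.53% and 2.44% a Cx3cr1 read, which is the level in wells that should hold little of either.

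Over the deep CD45+ wells Pearson's r of the log2 levels was -0.01 in 76 wells and 0.10 in 78 wells, and Spearman's rho was 0.02 and 0.15, a description of cells that share a plate. Among wells with either gene at or above 100 CPM, Ccr2 was at least 10-fold above Cx3cr1 in 17 of 29 and 13 of 38, Cx3cr1 was at least 10-fold above Ccr2 in 7 and 14, and 5 and 11 lay within 10-fold. Wells with both at that level were all leukocyte-like. Among them, well 71 of batch 2 (712 CPM of Ccr2 and 492 CPM of Cx3cr1) also held 550 CPM of the tubule marker Epcam. It held 95.98% of the Cxcr3 reads and 98.1% of the Cxcr6 reads of its plate as well. Whether wells with both receptors held more than 1 cell was not tested. Well 81 of batch 2 held 3397 CPM of Ccr2 and 3103 CPM of Cx3cr1, and well 73 of batch 1 held 786 and 1026 CPM. A limit of 100 CPM is a cut through a range: 8 and 13 wells lay between 50 and 200 CPM for Ccr2, and 7 and 8 for Cx3cr1.

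**Figure D4:**
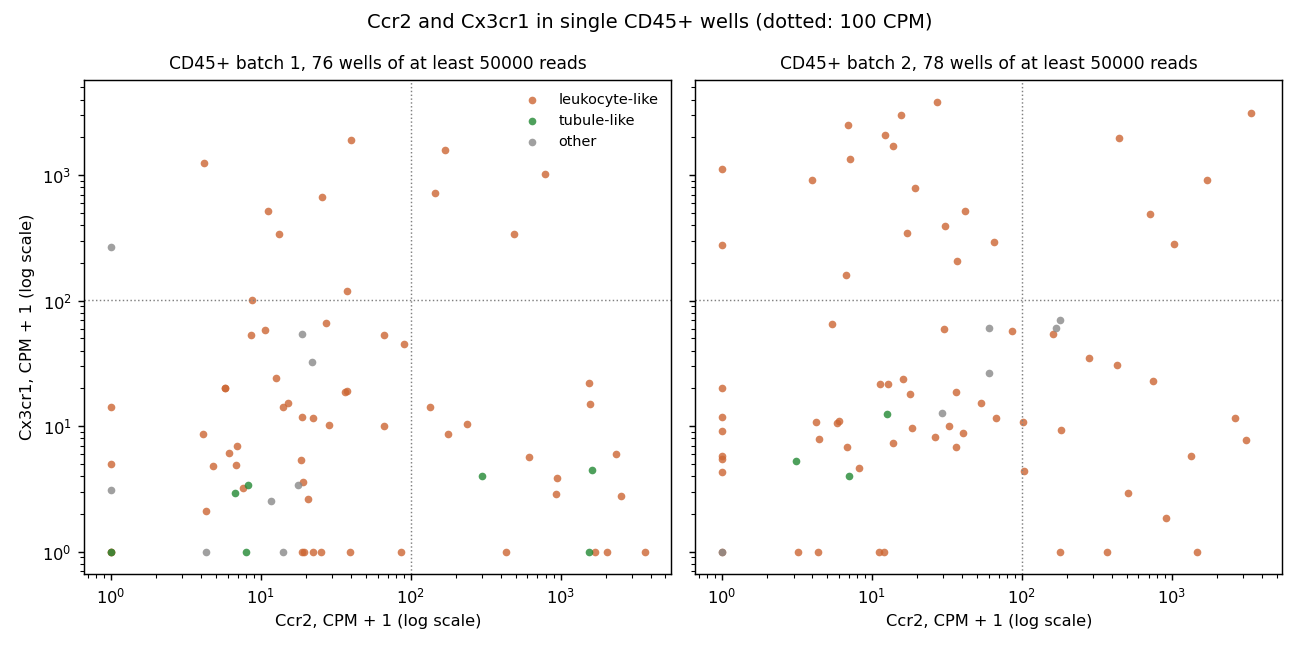
Ccr2 against Cx3cr1 (CPM plus 1, both axes log) in CD45+ wells of at least 50000 reads, batch 1 left and batch 2 right, with points coloured by class and dotted lines at 100 CPM. The upper right fields hold 4 and 5 wells, and the wells high in 1 receptor spread along both axes.

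Wells with Ccr2 alone and wells with Cx3cr1 alone were compared on 12 monocyte and 12 resident macrophage genes, at least 2-fold apart in the same direction in both batches. The groups were 17 and 8 wells in batch 1 and 17 and 16 in batch 2, cells of the same plates and not replicates. They were not confined to leukocyte-like wells, which made up 14 of 17 and 15 of 17 with Ccr2 alone and 7 of 8 and 16 of 16 with Cx3cr1 alone. Of the monocyte genes, 3 were higher with Ccr2 (against 9.87% of 8177 genes) and 1 was higher with Cx3cr1 (against 5.28%). They were Ly6c2, an inflammatory monocyte marker, at 173 and 163 CPM against 4.18 and 10.2 CPM, Chil3, a chitinase-like protein, at 139 and 363 CPM against 0.597 and 2.31 CPM, and Fn1, fibronectin, at 59.4 and 67.04 CPM against 2.39 and 0.962 CPM. Ly6c1, which endothelial cells also express, was the gene higher with Cx3cr1, at 652 and 1181 CPM against 165 and 208 CPM. Few wells carried these levels. Ly6c2 was at or above 100 CPM in 2 of 17 and 3 of 17 wells with Ccr2 alone and in 0 of 8 and 1 of 16 with Cx3cr1 alone, and its median over wells was at most 12.3 CPM in any of these groups. With Ccr2 alone, Chil3 was at that level in 3 of 17 and 2 of 17 wells and Fn1 in 2 of 17 and 1 of 17, and neither was in any well with Cx3cr1 alone. Ly6c1 was at that level in 2 of 8 and 3 of 16 wells with Cx3cr1 alone and in 1 of 17 and 2 of 17 with Ccr2 alone. The remaining wells did not follow one order, with 0.548 and 944 CPM of Ly6c2 in wells with both receptors and 168 and 55.5 CPM of Fn1 in wells with neither. The median log2 ratio of the monocyte list was 2.48 in batch 1 and 0.10 in batch 2, against 0.19 and 0 over all genes. Within that list the ratio of S100a4 was 5.01 in batch 1 and -6.05 in batch 2, and that of Hp was 6.05 and -0.00.

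None of the 12 resident macrophage genes passed, and their median was 0.06 and -0.00. C1qb, a chain of complement C1q, was at or above 100 CPM in every well of both groups, 17 and 17 with Ccr2 alone and 8 and 16 with Cx3cr1 alone. It stood at 9142 and 16336 CPM with Ccr2 alone and at 9926 and 14886 CPM with Cx3cr1 alone. Adgre1 stood at 388 and 362 CPM against 329 and 601 CPM. The class II chain gene Cd74 stood at 15658 and 35147 CPM against 21378 and 28012 CPM. Each of the 12 lay within 2-fold in at least 1 batch.

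The partners of the 8 genes were read from the list of the other 54 chemokine ligands and receptors, all measured, of which 32 averaged at least 1 CPM. Among those 32, 13 were called higher in CD45+, against 4.33% of the 12882 genes at that mean level. They were 10 ligands (Pf4, Ccl2, Ccl3, Ccl4, Ccl5, Ccl6, Ccl7, Ccl8, Ccl9 and Ccl12) and 3 receptors, among them Ccr1 and Ccrl2. Cxcl5 and Ccl19 were higher in CD45- (2 of 32, against 12.9%), calls that were lost without 1 well each. Cxcl5 was at -1.94 without well 11 of CD45- batch 1 and at -0.88 without well 23 of CD45- batch 2. Ccl19 was at -1.45 without well 35 of CD45- batch 1. The other 39 of the 54 were called in neither direction, among them all that averaged less than 1 CPM. Cxcl14, at 109 and 363 CPM in CD45- and 32.7 and 48.98 CPM in CD45+, missed the call by its batch 1 ratio of -1.70, which was -2.73 without well 37 of the CD45+ plate. Ccl11 and Cxcr5, at most 19.7 CPM in any plate, would likewise be called higher in CD45- without 1 well of CD45+ batch 1 each, at -3.67 without well 91 and at -3.19 without well 34.

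Ligands of Ccr2 were in the same gate as Ccr2. Ccl2 stood at 3.61 and 54.3 CPM in CD45- and at 1534 and 1116 CPM in CD45+, Ccl7 at 14.1 and 145 CPM and at 1364 and 1847 CPM, Ccl12 at 18.4 and 26.8 CPM and at 7664 and 5813 CPM. In the CD45- plate of batch 2, well 27 held 87.9% of the Ccl2 reads and 84.6% of the Ccl7 reads, and well 51 held 58.2% of the Ccl12 reads. In that of batch 1, well 87 held 86.8% of the Ccl2 reads and well 82 held 47.8% of the Ccl7 reads. Cx3cl1, the ligand of Cx3cr1, stood at 87.2 and 99.3 CPM in CD45- and at 125 and 10.3 CPM in CD45+, log2 ratios of 0.52 and -3.15. Well 91 held 50.5% of the CD45+ reads of batch 1 and well 22 held 78.2% of those of batch 2, and without them the ratios were -0.44 and -4.94. Cx3cl1 reached 100 CPM in 11 and 14 deep CD45- wells and in 2 and 2 CD45+ wells.

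Receptors of the CXC ligands were sparse. Cxcr2, the receptor of Cxcl1 and Cxcl2, stood at 33.3 CPM in CD45+ batch 1, where well 54 held 89.9% of it, and at 0, 0.0630 and 1.26 CPM in the other plates. Neutrophil markers stood, summed over 6 genes, at 1680 and 389 CPM in CD45+ but at 1.91 and 2.46 CPM in CD45-, with Csf3r at 0 in both CD45- plates. Their part in the Cxcr2 and Cxcl2 levels was not tested. Cxcr3 stood at 12.2 CPM and Cxcr6 at 15.1 CPM in CD45+ batch 2, where well 71 held 95.98% and 98.1% of their reads, and both at 0 in the CD45- plates. Ackr3 stood at 23.9 CPM (10.8 CPM without well 46) and 39.5 CPM in CD45- and at 14.05 and 21.4 CPM in CD45+, where 1 well in each CD45+ plate held 96.2% and 96.4% of its reads.

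Counted over all 8 genes, deep CD45- wells had a median of 0 of them at or above 100 CPM, and 50 of 79 and 46 of 82 had none. Deep CD45+ wells had a median of 1 in batch 1 and 2 in batch 2, and 14 of 76 and 12 of 78 had none. The most in 1 well was 5, in CD45- batch 2. Most reads of Cxcl16, of CD45+ Cxcl2 and of CD45+ Ccr2 and Cx3cr1 lay in the wells at or above 100 CPM. For Cxcl16 those were 14 to 34 deep wells per plate, and they held 95.3% to 98.1% of its reads. For CD45+ Cxcl2 they were 41 of 76 and 46 of 78, more than a few wells, and held 86.7% and 95.7%. For Ccr2 and Cx3cr1 in CD45+ the wells at that level held 95.9% to 96.8%.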

How the data were processed

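The authors deposited raw read counts of each gene in every well, 1 table per batch, per the labels and the file headers. Each sorted cell was made into a barcoded cDNA library with a Clontech SMARTer kit and sequenced in read pairs, per the labels' protocols. STAR (listed as 3.0.4), Subread and featureCounts 1.4.5 appear in the submitters' processing notes, without a role; the genome build and annotation are not given in the sources used here. Strand is not stated, so reads of overlapping genes could not be told apart.

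Repeated lines of a gene, 598 in batch 1 and 595 in batch 2 with identical counts in all 192 wells of a table, were dropped. Used wells (368 of 384) were summed per plate and scaled to CPM. Ratios used a pseudocount of 1, which understates the ratio of genes near 0. Shares at equal depth used wells thinned at random to 50000 reads. Clusters came from scanpy 1.11.5 with Leiden grouping by leidenalg 0.10.2 (counts scaled to 10000, 2000 variable genes, 20 components, 15 neighbours, resolution 1), and a class needed at least 3 detected markers. No doublet or free RNA caller was run. TMM factors came from edgeR 4.0.16. The call and the likeness measure were tested on simulated data, and the thinning was checked for its total on deposited wells. Likeness was the smaller Pearson's r of both batches over log2 CPM plus 1, among genes with a read in at least 20% of deep wells of the gate, and the 3 highest genes are named for each of the 8. Other chemokine genes are named where they reached 20 CPM in 1 gate in both batches (the 12 highest), where they were called, or as partners of the 8, chosen after their values were seen, as were the Cxcl10 and Ccr2 wells described with other genes and the promoter motifs. A few genes picked by these rules are not reported here. The 8 genes and the lists were chosen with earlier results of these data known. Labels name no separate animals, so values measure the spread between plates, which may be technical.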

Additional observations from a re-analysis of the deposited data

Results flagged for a closer look

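The gate ratio of Cxcl10 had opposite signs in the batches, a log2 ratio of CPM plus 1 of 6.12 in batch 1 and -0.98 in batch 2, a difference that was not tested. The CD45- plate of batch 1 held 0 Cxcl10 reads, so the first value depends on the pseudocount. Cxcr4 also differed in sign, with 1.66 and -0.12, on 2 to 63 reads per plate, again untested.

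Wells left out for low depth held reads of the 8 genes. The 6 CD45- wells held 25 reads of Cxcl12, 11 of Cxcl16 and 5 of Cxcl2. The 10 CD45+ wells held 200 reads of Cxcl2, 154 of Cxcl16, 16 of Ccr2 and 16 of Cx3cr1. Over the 43200 and 80480 reads of these wells, Cxcl2 stood at 116 CPM in CD45- and 2485 CPM in CD45+, and Cxcl12 at 579 and 24.9 CPM, on the same side as in the wells used.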

How the results depend on the processing

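The 4 calls (3 higher in CD45+, 1 in CD45-) were unchanged with a pseudocount of 0.1, all wells, only wells of at least 50000 reads, the mean CPM of single wells, TMM factors, and without the top well of each plate. With a 2-fold limit 2 genes were higher in CD45-, as Cxcl1 was added, and 4 in CD45+, as Cxcl16 was added. With each well left out in turn the genes called were 4 to 5, those higher in CD45+ 3 to 3 and those higher in CD45- 1 to 2. The share of CD45+ wells with both Ccr2 and Cx3cr1 depended on what counts as presence. In batch 1 it was 19.5% at 20000 reads, 43.75% at 100000, 27.6% in another draw at 50000, 68.5% with any read unthinned and 7.61% at 100 CPM. In wells of at least 50000 reads of batch 1 it was 5.26% at 100 CPM, 6.56% in leukocyte-like wells and 0% at 1000 CPM. In batch 2 it was 24.7% at 20000 reads, 55.6% at 100000, 74.4% with any read, 10.0% at 100 CPM, and 6.41%, 7.25% and 1.28% by the last 3 measures. The limits of 100 CPM in deep wells and of 1000 CPM, and leaving out the top well in every plate or in 1 plate, were chosen after seeing the data. The 14 levels by class that were recomputed at a clustering resolution of 0.5 (Cxcl12 and Cxcl16 in CD45- classes, Cxcl2, Cxcl16, Ccr2 and Cx3cr1 in leukocyte-like wells) moved by less than the spread between batches. No paired analysis was possible because replicate numbers are accession order only, the labels pair no wells and no test was made. Few reads limit Cxcr4 and the CD45- levels of Ccr2 and Cx3cr1.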
